A study of Mus musculus with 6 samples.

Results

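Siglecs and CD300 molecules are surface receptors of myeloid cells that read the state of neighbouring cells. Siglecs bind sialic acids, the sugars that cap the glycans of most vertebrate cell surfaces, whereas CD300 receptors bind lipids such as phosphatidylserine and ceramide that become exposed on dying cells. Many of them come in pairs. Inhibitory members carry tyrosine motifs (ITIMs) that recruit the phosphatases SHP-1 and SHP-2, and activating members signal through the adaptors DAP12 or the Fc receptor gamma chain. Examined here were 10 such genes of the 55335 in the table, chosen by symbol: the Siglec genes *Siglec1*, *Siglece*, *Siglecf*, *Siglecg* and *Cd33*, the CD300 genes *Cd300a*, *Cd300lb*, *Cd300ld* and *Cd300lf*, and *Pirb*, the gene of the inhibitory receptor PIR-B, which binds MHC class I and myelin-associated inhibitors of axon growth. Each of the 10 symbols matched 1 gene, and all 10 passed the filter on low values.

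The 6 RNA-seq libraries came from bone marrow-derived macrophages (BMDMs), which are macrophages grown from marrow cells, here with 25 ng/ml M-CSF for 7 days. The BMDMs of both groups carried the WT genotype. They were co-cultured for 24 h with neutrophils isolated from spinal cord injury lesions at 3 dpi and then sorted by FACS, with the gate not given in the sources used here. In 3 libraries the neutrophils were labelled *Cd177* WT and in 3 *Cd177* KO. The mice of the study were male and adult, on a C57BL/6 background where the methods give one, and whether animals were pooled is not given. Neither the labels nor the methods say that the replicates were separate cultures, so the p-values measure only the spread between these libraries. The comparison asks how the receptor transcripts of macrophages differed with the *Cd177* genotype of the neutrophils beside them, and the smallest p that an exact permutation of 3 against 3 libraries could give is 0.1.

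Values are FPKM, a fragment count divided by transcript length and library total. The tests used limma on log2(FPKM + 0.5) in 13367 genes (mean over all libraries 0.5 FPKM or more), with Benjamini-Hochberg adjustment over all of them. A fold change on this scale understates the change of low genes. If the smallest step of the values is 1 fragment, the depth was between 1.78e+07 and 2.04e+07 fragments per library, although only 35% to 39.8% of low values lay within 0.1 of a whole step. *Cd177* measured 0.544, 0.309 and 0.521 FPKM where the neutrophils were labelled WT, and 1.79, 1.84 and 2.28 FPKM where they were labelled KO. It was thus higher with KO neutrophils, against the labels, although the sequenced cells themselves were WT, and WT and KO below mean the libraries so labelled. Macrophage markers were present in full (8 of 8 tested, summed at 5746 to 6834 FPKM in WT and 7358 to 8021 FPKM in KO). *Lyz2*, which neutrophils also express, made up most of that sum (4922 and 6144 FPKM on average), and of the others *Mrc1* rose from 28.0 to 221 FPKM (log2 fold change 2.96) and *Fcgr1* fell from 121 to 33.8 FPKM (log2 fold change -1.83). Neutrophil markers were also present, and their sum was higher in KO (162 to 228 FPKM in WT, 517 to 529 FPKM in KO). Of the 12 markers 9 were tested and all 9 were higher, beside 27.1% of all tested genes. *Cxcr2* and *Cd177* averaged under 0.5 FPKM in WT and passed the filter only through KO. Among those not tested, *Elane* averaged 0.317 FPKM in WT and 0.138 FPKM in KO, and *Mpo* 0.174 and 0.410 FPKM. *Ly6g* itself was listed at 0 in WT and at 0.403 to 0.66 FPKM in KO. The part of carried-over neutrophil RNA in the results below was not tested. In bulk samples like these, a smaller number of cells of a type and less RNA per cell cannot be told apart.

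**Figure D1:**
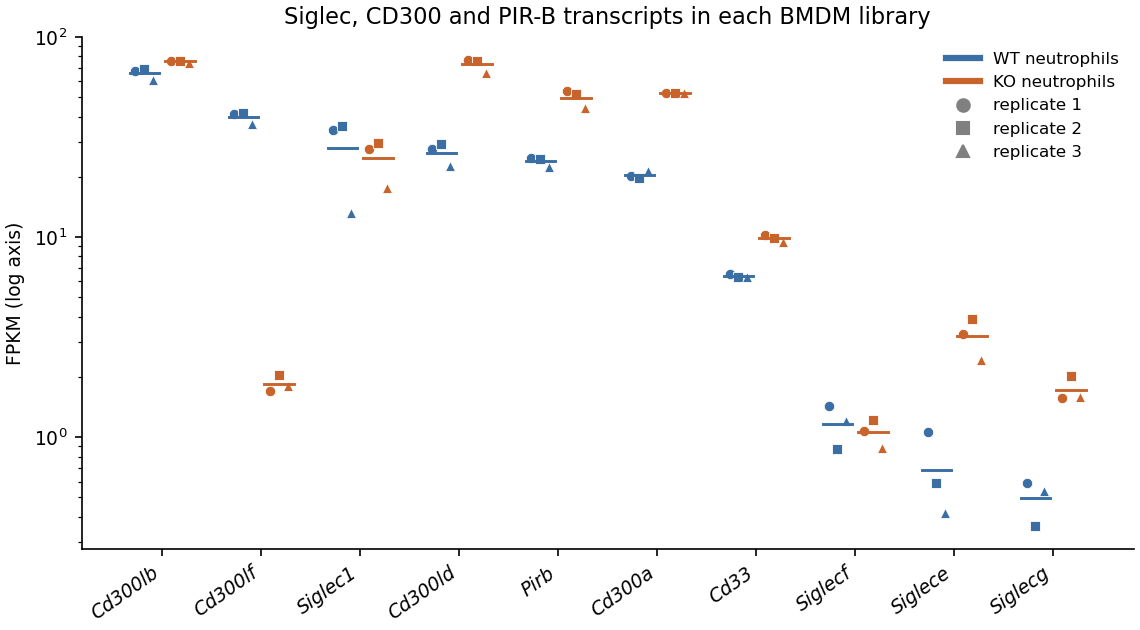
FPKM of each of the 10 receptor genes (log axis) in the 3 WT (blue) and 3 KO (orange) libraries, with a marker shape for each replicate number and a line at the group mean. *Cd300lf* lies between 36.7 and 41.9 FPKM in WT and between 1.70 and 2.04 FPKM in KO, while *Cd300ld*, *Pirb*, *Cd300a*, *Cd33*, *Siglece* and *Siglecg* lie higher in KO without overlap.

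The 2 most abundant of the 10 receptor transcripts in WT were of the CD300 family. *Cd300lb* led with a mean of 65.9 FPKM, followed by *Cd300lf* with 39.98 FPKM, and these ranks did not overlap. *Siglec1*, *Cd300ld* and *Pirb* came next at 23.9 to 27.8 FPKM and overlapped each other in order. *Cd300a* (20.4 FPKM) and *Cd33* (6.38 FPKM) followed without overlap with the gene just above, and *Siglecf*, *Siglece* and *Siglecg* closed the order with means of 0.497 to 1.17 FPKM, each overlapping the next. In KO the order differed. *Cd300lb* and *Cd300ld* overlapped at the top, *Cd300a* and *Pirb* overlapped below them, and *Cd300lf* fell to the eighth place, where it overlapped *Siglecg*.

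Of the 10 genes, 6 were higher in KO (*Siglece*, *Siglecg*, *Cd33*, *Cd300a*, *Cd300ld* and *Pirb*), 1 was lower (*Cd300lf*) and 3 did not pass the test (*Siglec1*, *Siglecf* and *Cd300lb*). *Siglecg*, with a mean of 0.497 FPKM in WT, had passed the filter on low values only through KO. Among all tested genes 37.6% passed, 27.1% as higher and 10.5% as lower. The groups did not overlap for 8 of the 10 genes, and for 51.9% of all tested genes. The median log2 fold change of the 10 was 0.81, beside 0.19 over all tested genes. Median-of-ratios scaling between libraries sets such a general shift near 0 by design (median -0.01), and the origin of the shift was not tested. Under this scaling and the other 3 tried, the same 7 genes passed in the same directions. At the study's own threshold, a fold change above 2 with an unadjusted p under 0.05, *Cd33* dropped out and 5 genes were higher and 1 lower, where 11.1% of all tested genes passed.

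**Figure D2:**
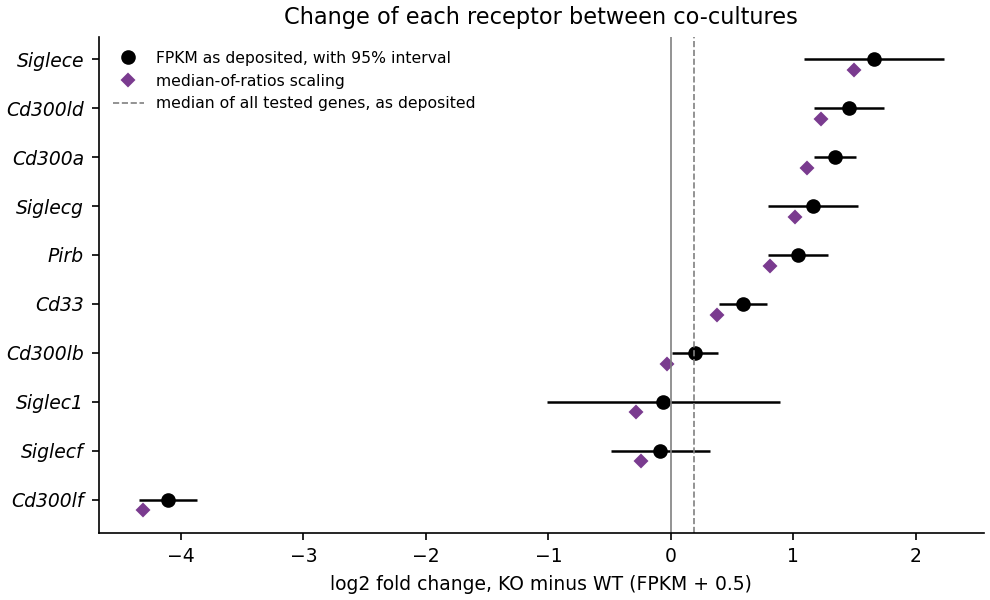
Log2 fold change, KO minus WT, of each receptor gene on FPKM as deposited (black, with its 95% interval) and after median-of-ratios scaling (purple). The dashed line marks the median of all tested genes at 0.19, and *Cd300lf* stands alone to the left at -4.11.

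The CD300 genes lie side by side within 243.95 kb of chromosome 11, and they did not move together. *Cd300lf* encodes CLM-1 (CD300f), an inhibitory receptor for phosphatidylserine and ceramide. *Cd300a* encodes an inhibitory receptor for phosphatidylserine and phosphatidylethanolamine. *Cd300ld* and *Cd300lb* encode short-tailed receptors (CLM-5 and CLM-7) that pair with activating adaptors. The sequences before the starts of *Cd300lf*, *Cd300a* and *Cd300ld* are shown because these receptors changed in opposite directions within one cluster. They are the 250 bases upstream of the RefSeq start in GRCm38.p6, written in the direction of transcription, at chr11:115133993-115134242 (minus strand) for *Cd300lf*, chr11:114889791-114890040 (plus strand) for *Cd300a* and chr11:114989887-114990136 (minus strand) for *Cd300ld*. Capitals mark the core GAGGAAG, or CTTCCTC on the opposite strand, of the motif bound by PU.1, a transcription factor of the myeloid lineage.
Cd300lf: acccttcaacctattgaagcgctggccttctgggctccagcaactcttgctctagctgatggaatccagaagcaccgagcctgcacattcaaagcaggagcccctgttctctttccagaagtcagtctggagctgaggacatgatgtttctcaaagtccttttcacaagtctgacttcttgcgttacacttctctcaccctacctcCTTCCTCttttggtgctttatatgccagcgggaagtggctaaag
Cd300a: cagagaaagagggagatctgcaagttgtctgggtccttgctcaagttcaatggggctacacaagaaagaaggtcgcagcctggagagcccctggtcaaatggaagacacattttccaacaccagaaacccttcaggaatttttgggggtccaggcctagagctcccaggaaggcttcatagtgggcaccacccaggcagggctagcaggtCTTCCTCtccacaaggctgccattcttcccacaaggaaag
Cd300ld: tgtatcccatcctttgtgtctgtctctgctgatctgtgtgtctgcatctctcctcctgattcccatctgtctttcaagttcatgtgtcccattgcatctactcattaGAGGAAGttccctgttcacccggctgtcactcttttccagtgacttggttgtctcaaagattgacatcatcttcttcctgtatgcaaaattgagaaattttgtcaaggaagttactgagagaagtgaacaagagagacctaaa
The match begins 40 bases before the start in *Cd300a* and 44 bases before it in *Cd300lf*, both on the opposite strand, and 143 bases before the start in *Cd300ld*. Apart from that the windows have little in common, since the longest run of bases shared by *Cd300lf* was 9 with *Cd300a* and 8 with *Cd300ld*. Of the 9 receptor genes with a RefSeq promoter, 8 had the PU.1 core on either strand in at least 1 window and *Cd300lb* did not. *Siglecg* had another window without it. Of all 32851 promoters of that length 10.6% had the core, a comparison not limited to myeloid genes. The core of the interferon-stimulated response element (GAAA, any 2 bases, GAAA, in 2.98% of all promoters) and the NF-kB motif (GGGA, any base, TTTCC, in 0.356%) were found in none of the 9 on either strand. The GAS core (TTCNNNGAA, N being any base, in 7.02% of all promoters) was also found in none of the 9. These motifs do not contain one another, and a match or its absence describes these letters only. *Siglec1* was not among the promoters used.

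*Cd300lf* (ENSMUSG00000047798, chr11:115116214-115133992, minus strand) had 41.3, 41.9 and 36.7 FPKM in WT and 1.70, 2.04 and 1.81 FPKM in KO. Every WT library was far above every KO library. Its mean fell 21.6-fold, from 39.98 ± 2.82 to 1.85 ± 0.175 FPKM (SD, n = 3), with a log2 fold change of -4.11 (SE 0.10, limma adjusted p = 1.86e-06). Only 0.239% of tested genes fell as far or further, which placed *Cd300lf* at rank 32 from the lowest of 13367. The gene *Rab37* overlaps it on the opposite strand, but the annotated exons share no bases and *Rab37* stayed between 0.0102 and 0.103 FPKM.

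*Cd300a* (ENSMUSG00000034652, chr11:114890041-114904654, plus strand) had 20.1, 19.7 and 21.3 FPKM in WT and 52.3, 52.3 and 52.2 FPKM in KO. The KO libraries were nearly equal and lay well above the WT libraries. The mean rose 2.56-fold (log2 fold change 1.34, SE 0.07, limma adjusted p = 3.08e-05). *Cd300ld* (ENSMUSG00000034641, chr11:114982274-114989922, minus strand) had 27.6, 29.0 and 22.6 FPKM in WT and 76.7, 76.1 and 66.1 FPKM in KO. Again the groups were far apart, with replicate 3 the lowest of each, and the rise was 2.76-fold (log2 fold change 1.45, SE 0.12, limma adjusted p = 0.000199).

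*Cd300lb* (ENSMUSG00000063193, chr11:114922781-114934386, minus strand) had 67.8, 68.8 and 61.0 FPKM in WT and 76.0, 75.8 and 74.5 FPKM in KO. The groups did not overlap, yet the difference was small. On the values as deposited its log2 fold change was 0.20 (SE 0.08, 95% interval 0.01 to 0.38, limma adjusted p = 0.0964), close to the median shift of all genes, and it became -0.03 with median-of-ratios and -0.02 with upper-quartile scaling. Without replicate 3 of both groups, an alternative chosen after the values were seen, it was 0.15 with a limma adjusted p of 0.0336.

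The make-up of the transcripts of these 4 CD300 genes therefore changed more than their total. The summed FPKM of the 4 genes was 141.7 to 159.5 in WT and 194.6 to 206.6 in KO. That sum leaves out *Cd300c2*, *Cd300ld3*, *Cd300ld4* and *Cd300ld5*, given below, so the shares are not those of all CD300 transcripts. *Cd300lf* made up 25.9% to 26.4% of that sum in WT and 0.823% to 0.990% in KO. *Cd300a* went from 12.4% to 15.0% of the sum in WT to between 25.3% and 26.8% in KO, and *Cd300ld* from 16.0% to 18.2% to between 34.0% and 37.1%. The ratio of *Cd300a* to *Cd300lf*, both inhibitory receptors for phosphatidylserine, does not depend on scaling between libraries and went from 0.471 to 0.580 in WT to 25.6 to 30.8 in KO.

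**Figure D3:**
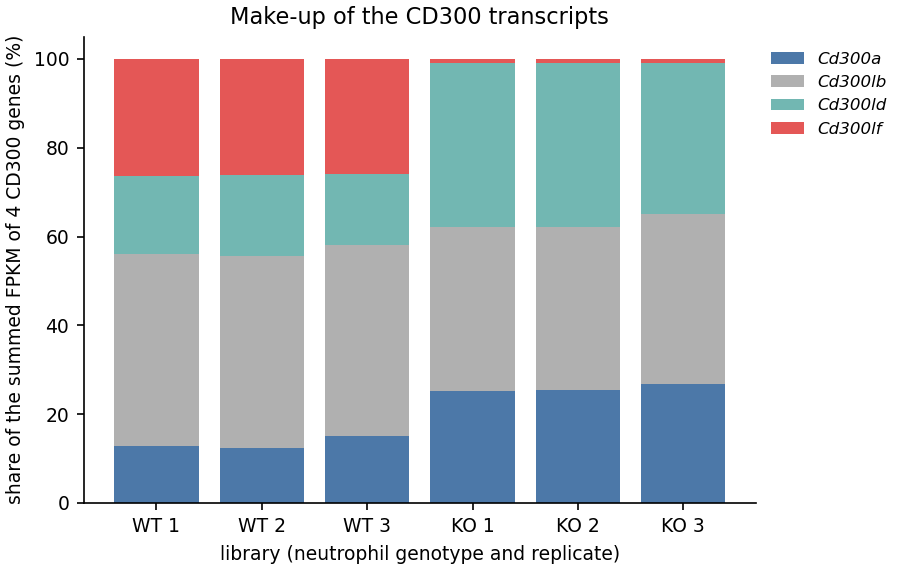
Share of each gene, in percent, in the summed FPKM of *Cd300a*, *Cd300lb*, *Cd300ld* and *Cd300lf* in each library. The *Cd300lf* share (red) is 25.9% to 26.4% in the 3 WT libraries and 0.823% to 0.990% in the 3 KO libraries.

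No other tested gene of the cluster was called lower beside *Cd300lf*. *Cd300c2*, which encodes an activating receptor of this family and was the most abundant of all CD300 transcripts, had 145 ± 29.3 FPKM in WT and 160 ± 10.8 FPKM in KO (SD, n = 3) with overlapping groups (limma adjusted p = 0.453). *Cd300ld3*, *Cd300ld4* and *Cd300ld5*, near-identical copies of one another, rose from means of 25.2, 10.3 and 19.2 FPKM to 74.0, 32.3 and 61.1 FPKM (log2 fold changes 1.57, 1.64 and 1.68, limma adjusted p = 0.00182, 0.00350 and 0.00372). These copies share 80.9%, 86.7% and 100% of their 100-base transcript windows with other genes, so the split of fragments among them is uncertain. *Cd300ld2* went from 1.14 to 3.92 FPKM (log2 fold change 1.67, limma adjusted p = 0.0401), a call lost under each of the 4 other scalings (limma adjusted p = 0.0653 with median-of-ratios). By contrast *Cd300ld* and *Cd300lf* share only 35 windows with each other, 1.37% and 0.644% of theirs, and *Cd300a* shares 0.849% of its windows with *Cd300c2*. Of the 13 annotated genes in the cluster 10 were tested, and 6 were higher, beside 27.1% of all tested genes. *Cd300lf*, at the far end from *Cd300a*, was the 1 that was lower, beside 10.5% of all tested genes. The 6 include *Cd300ld2* and the near-identical copies, so the count of separate signals is uncertain.

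**Figure D4:**
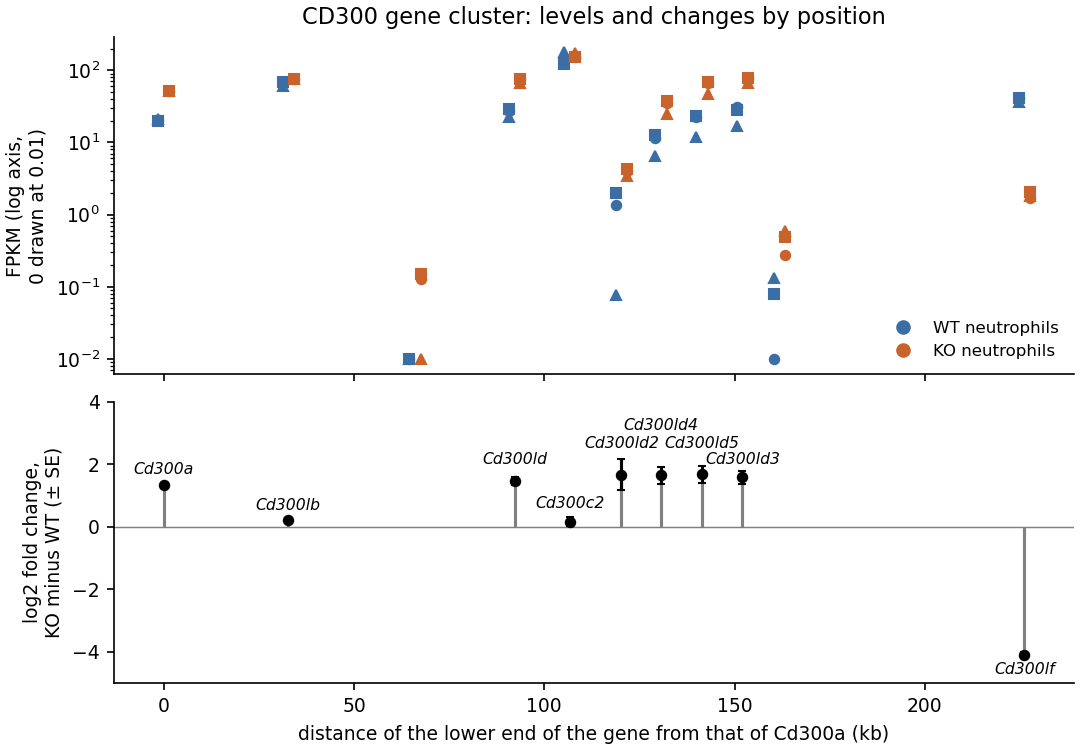
CD300 genes by the distance of their lower end from that of *Cd300a*, in kb. The upper panel gives FPKM (log axis, 0 drawn at 0.01) in each WT and KO library, with marker shapes for the replicate numbers, and the lower panel the log2 fold change with its SE for the tested genes. *Cd300lf*, at the right end, is the 1 gene drawn that points down.

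Of the Siglecs, 4 of the 5 genes lie within 308.82 kb of chromosome 7, and 3 of these 4 rose, beside 27.1% of all tested genes. That stretch holds 23 annotated genes, of which 8 were tested, 4 were higher and 0 lower. The 4 include *Etfb*, which is not a Siglec gene (14.8 to 42.7 FPKM on average, log2 fold change 1.52, limma adjusted p = 0.000903). *Siglece* (ENSMUSG00000030474, chr7:43651070-43660161, minus strand), which encodes an inhibitory Siglec of neutrophils and macrophages, had 1.06, 0.588 and 0.416 FPKM in WT and 3.28, 3.89 and 2.43 FPKM in KO. No KO library was as low as the highest WT library. The mean rose 4.66-fold from 0.687 ± 0.332 to 3.20 ± 0.729 FPKM (SD, n = 3), with a log2 fold change of 1.66 (SE 0.24, limma adjusted p = 0.00213). These values rest on about 14 to 147 fragments per library. Since neutrophils also express *Siglece*, the higher sum of neutrophil markers in KO given above stands beside this rise, and its part was not tested.

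*Siglecg* (ENSMUSG00000030468, chr7:43408204-43418358, plus strand), best known as an inhibitor of B cell receptor signalling, had 0.593, 0.361 and 0.536 FPKM in WT and 1.57, 2.01 and 1.59 FPKM in KO. The lowest KO library was above the highest WT library, and the 3.47-fold rise corresponded to a log2 fold change of 1.16 (SE 0.15, limma adjusted p = 0.00151) over about 31 to 197 fragments. The WT mean of 0.497 FPKM lay just under 0.5 FPKM, so *Siglecg* passed the filter on low values only through KO. Without that filter its limma adjusted p was 0.00745. The summed B lineage markers were also higher in KO (0.711 to 1.58 FPKM in WT, 13.3 to 15.6 FPKM in KO). Of the 8 markers 2 were tested and both were higher, beside 27.1% of all tested genes. *Ighm* passed the filter on low values only through KO, so its call follows in part from the filter. Most of that sum was *Ighm* (0.247 and 9.88 FPKM on average) and *Cd79b* (0.822 and 4.10 FPKM). The defining markers *Ms4a1* and *Pax5* stayed at or under 0.0447 FPKM in every library and *Igkc* was listed at 0 in all 6.

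*Cd33* (ENSMUSG00000004609, chr7:43524216-43544428, minus strand), the gene of a myeloid Siglec, had 6.55, 6.28 and 6.30 FPKM in WT and 10.3, 9.88 and 9.41 FPKM in KO. The groups were tight and apart. The rise was modest, from 6.38 ± 0.150 to 9.85 ± 0.427 FPKM (SD, n = 3), or a log2 fold change of 0.59 (SE 0.08, limma adjusted p = 0.00183), and it was 0.37 with median-of-ratios scaling, where it still passed.

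*Siglecf* (ENSMUSG00000039013, chr7:43351341-43359531, plus strand), the Siglec of mouse eosinophils and alveolar macrophages, had 1.43, 0.873 and 1.204 FPKM in WT and 1.07, 1.22 and 0.884 FPKM in KO. The groups overlapped throughout. Its log2 fold change of -0.09 had a 95% interval of -0.49 to 0.32 (limma adjusted p = 0.715), and missing the threshold does not show that the groups were alike. Of the eosinophil markers *Epx* was listed at 0 in all libraries and the 5 summed to 2.83 to 3.27 FPKM in WT and 3.56 to 4.74 FPKM in KO, with neither of the 2 tested passing. The 6 alveolar macrophage markers summed to 33.8 to 42.8 FPKM in WT and 40.1 to 42.4 FPKM in KO. In that list *Car4*, *Krt79* and *Plet1* stayed at or under 0.113 FPKM, *Marco* fell from 14.9 to 2.27 FPKM (limma adjusted p = 4.83e-05) and *Chil3* rose from 23.2 to 39.0 FPKM (limma adjusted p = 0.00168).

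*Siglec1* (ENSMUSG00000027322, chr2:131069220-131086765, minus strand) encodes sialoadhesin (CD169), a long adhesion receptor without an inhibitory motif that is known as an interferon-induced gene of macrophages. It had 34.1, 36.1 and 13.2 FPKM in WT and 27.6, 29.5 and 17.7 FPKM in KO. Replicate 3 was the lowest of both groups and the groups overlapped. The log2 fold change was -0.06 with a wide 95% interval of -1.01 to 0.89 (SE 0.40, limma adjusted p = 0.920). Without replicate 3 of both groups, an alternative chosen after the values were seen, it was -0.30 with a limma adjusted p of 0.0168. In the same libraries all 10 genes of a list of interferon-induced genes were lower in KO, beside 10.5% of all tested genes. Their median change was -4.84 on the log2 scale, with a sum of 716 to 848 FPKM in WT and 16.5 to 19.6 FPKM in KO. *Rsad2*, *Ifit1* and *Isg15* fell furthest (log2 fold changes -5.75, -5.51 and -5.38). The interval of *Siglec1* does not reach changes of that size, and a link of its level to those genes was not tested.

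**Figure D5:**
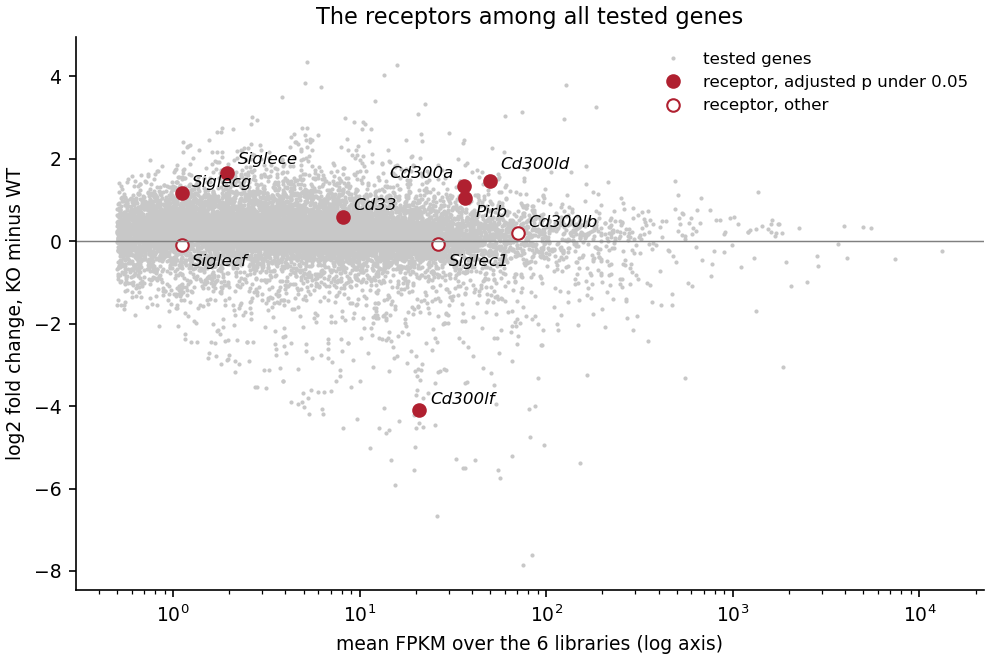
Mean FPKM over the 6 libraries (log axis) against the log2 fold change, KO minus WT, for all 13367 tested genes (grey) and the 10 receptor genes (red, filled where the adjusted p is under 0.05). *Cd300lf* lies at -4.11 near the lower edge, with the 6 receptors that rose between 0.59 and 1.66.

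*Pirb* (ENSMUSG00000058818, chr7:3711409-3720391, minus strand) had 24.8, 24.6 and 22.3 FPKM in WT and 53.5, 51.8 and 44.0 FPKM in KO. All KO libraries were far above all WT libraries. The mean rose 2.08-fold from 23.9 ± 1.42 to 49.8 ± 5.03 FPKM (SD, n = 3), a log2 fold change of 1.04 (SE 0.10, limma adjusted p = 0.000412). PIR-B has activating partners of nearly the same ectodomain, the PIR-A receptors, which signal through the Fc receptor gamma chain. *Pira2*, one of them, had 4.21, 4.58 and 3.58 FPKM in WT and 12.9, 12.4 and 13.2 FPKM in KO, without overlap (log2 fold change 1.53, limma adjusted p = 9.61e-05). The ratio of *Pira2* to *Pirb* was 0.161 to 0.186 in WT and 0.239 to 0.3003 in KO. The upstream windows of both genes are shown because this pair of opposite function rose together, with the PU.1 core in capitals and the coordinates chr7:3720383-3720632 for *Pirb* and chr7:3845052-3845301 for *Pira2* (GRCm38.p6, minus strand, RefSeq).
Pirb: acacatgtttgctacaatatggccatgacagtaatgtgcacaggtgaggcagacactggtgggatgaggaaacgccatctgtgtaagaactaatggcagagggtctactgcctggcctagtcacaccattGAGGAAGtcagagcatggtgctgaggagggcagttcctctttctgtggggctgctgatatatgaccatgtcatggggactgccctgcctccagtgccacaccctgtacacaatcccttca
Pira2: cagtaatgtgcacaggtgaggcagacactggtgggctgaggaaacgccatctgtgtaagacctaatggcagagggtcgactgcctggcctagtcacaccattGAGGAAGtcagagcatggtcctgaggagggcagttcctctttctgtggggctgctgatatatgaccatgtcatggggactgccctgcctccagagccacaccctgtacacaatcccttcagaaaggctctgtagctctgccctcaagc
Both hold the core in the same surrounding letters, 120 and 148 bases before their starts, and the longest run they share without a difference is 73 bases. Their transcripts share stretches too, with each other and with further genes. Of the 100-base windows of *Pirb* 20.7% occur in other genes, most often in *Gm14548* (11.7%) and then in *Pira2*. Of those of *Pira2* 84.1% occur in other genes, most often in *Gm15922* (71.9%), followed by *Gm14548* and *Pirb*. Fragments may have been split among these genes, so the values of *Pira2* are uncertain.

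Others of the PIR and LILR family were less abundant, apart from *Lilrb4a*, an inhibitory receptor, which had 56.6 FPKM in WT and 56.4 FPKM in KO on average (limma adjusted p = 0.985). *Lilra6* went from 0.378 to 1.21 FPKM (log2 fold change 0.97, limma adjusted p = 0.00439). *Gm15448* went from 0.342 to 1.03 FPKM (limma adjusted p = 0.0454, lost under 3 of the 4 other scalings). *Lilra6* and *Gm15448* averaged under 0.5 FPKM in WT and passed the filter on low values only through KO. *Gm14548* had 3.12, 2.67 and 0 FPKM in WT and 8.27, 7.95 and 6.90 FPKM in KO and did not pass (limma adjusted p = 0.05001). In all 6 of 14 listed genes were matched by symbol, 5 were tested, and 3 were higher and 0 lower. The stretch of chromosome 7 from *Pirb* to *Lilra6* holds 9 annotated genes, of which 6 were tested, 5 were higher and 0 lower. The 5 include *Pirb* and *Gm15922*, which was not on the list (2.36 to 7.42 FPKM on average, log2 fold change 1.48, limma adjusted p = 0.000192). Since *Gm15922* shares windows with *Pira2*, the count of separate signals is uncertain. The list of other Siglec and CD300 genes gave 4 higher and 0 lower among 7 tested, where 27.1% and 10.5% of all tested genes passed. The 4 are *Cd300ld2*, *Cd300ld3*, *Cd300ld4* and *Cd300ld5*, already counted in the cluster. The Siglecs of that list did not pass. *Cd22* had 4.56 and 4.78 FPKM (limma adjusted p = 0.769), *Mag* 0.449 and 0.709 FPKM (limma adjusted p = 0.256), and *Siglech* and *Siglec15* were at or under 0.357 FPKM in every library and untested.

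Downstream of these receptors, the inhibitory phosphatases were in part higher in KO. *Ptpn6* (SHP-1) had 46.3, 40.9 and 39.5 FPKM in WT and 69.1, 66.1 and 67.1 FPKM in KO, a clear gap between the groups (log2 fold change 0.67, limma adjusted p = 0.00134). *Inpp5d* (SHIP1, a lipid phosphatase) rose from 19.7 to 34.3 FPKM on average (log2 fold change 0.80, limma adjusted p = 0.0128), while *Ptpn11* (SHP-2) had 19.4 and 21.1 FPKM (limma adjusted p = 0.553). *Fyn*, a Src-family kinase, rose from 5.57 to 12.1 FPKM (log2 fold change 1.04, limma adjusted p = 0.00155). Of the activating adaptors, *Tyrobp* (DAP12) went from 570 to 771 FPKM (log2 fold change 0.44, limma adjusted p = 0.0211), a call that was lost with median-of-ratios scaling (0.21), and *Fcer1g*, the Fc receptor gamma chain, had 549 and 564 FPKM (limma adjusted p = 0.772). Over the list of 17 adaptors, kinases and phosphatases, 6 were higher and 0 lower, beside 27.1% and 10.5% of all tested genes. The median log2 fold change was 0.25, close to that of all genes, and median-of-ratios scaling gave 3 higher and 2 lower.

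On the side of the Siglec ligands, 18 of 24 genes for making, attaching and removing sialic acid were tested. Of these 9 were higher and 2 lower in KO, the median change being 0.47 on the log2 scale (6 and 3 with median-of-ratios scaling). Over all 13367 tested genes 27.1% were higher and 10.5% lower, with a median of 0.19 (2057 and 2259 genes with median-of-ratios scaling). *St6gal1*, the enzyme that adds alpha2,6-linked sialic acid to N-glycans, had 8.19, 7.42 and 6.66 FPKM in WT and 28.0, 27.4 and 22.4 FPKM in KO. The groups were far apart (log2 fold change 1.74, limma adjusted p = 0.000103). *St8sia4*, a polysialyltransferase, rose from 1.96 to 5.32 FPKM (log2 fold change 1.24, limma adjusted p = 0.000146) and *Slc17a5*, the lysosomal sialic acid exporter, from 8.81 to 19.2 FPKM (log2 fold change 1.09, limma adjusted p = 0.000337). The genes that fell were *Cmas*, which activates sialic acid to its CMP form (22.9 to 15.0 FPKM, log2 fold change -0.59, limma adjusted p = 0.00741), and *Neu1*, the lysosomal sialidase (33.5 to 26.2 FPKM, log2 fold change -0.35, limma adjusted p = 0.00821).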

How the data were processed

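The 6 BMDM libraries were grouped by the treatment given in their labels. The authors deposited FPKM per gene for 55335 Ensembl identifiers. The submitters' processing notes name fastp 0.17.1, HISAT2 2.1.0, DESeq2 1.18.1 and R 3.4.3, and the genome build and the quantification tool are not given in the sources used here. The reagent for RNA extraction, the library kit and the sequencer differ between the labels and the study's methods. Symbols and positions came from GENCODE M21 (GRCm38), which matched 55154 identifiers (99.7%), and promoters from RefSeq (GRCm38.p6).

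From these values log2(FPKM + 0.5) was tested with limma 3.58.1 in R 4.3.3 (lmFit, eBayes with trend, two-sided, no covariates) in 13367 genes (mean over all libraries 0.5 FPKM or more), with Benjamini-Hochberg adjustment and a threshold of 0.05. FPKM is relative to the library total, so abundant genes that change shift all others. Whole fragments could not be recovered from the steps of low values, so no count test was run, and implied fragment numbers are approximate. Windows of 100 bases of annotated transcripts were searched for copies in other genes. The test was checked on simulated data. Other settings tried were 4 scalings, pseudocounts of 0.1 and 1, a minimum mean of 1 FPKM or none, a robust variance estimate, the replicate block, the study's threshold and each library left out.

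The receptors and lists were chosen with earlier results of these data known, and no list is independent evidence. Named beside the receptors were, for each list, up to 3 genes with the largest rise and up to 3 with the largest fall among genes that passed with a mean of at least 1 FPKM, the tested relatives, and a fixed set of adaptors and phosphatases. The lists came from general knowledge. Genes most like a receptor were the 3 with the smallest Euclidean distance between centred log2 profiles. Microglia and in vivo data were not analysed here. The rest used pandas 2.3.3, numpy 2.4.6 and matplotlib 3.10.9 under Python 3.11.15.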

Additional observations from a re-analysis of the deposited data

How the results depend on the processing

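The 7 receptor genes that passed the test kept their direction and their call under all alternatives to the processing, with log2 fold changes of -4.36 to -3.85 for *Cd300lf*, 1.11 to 1.37 for *Cd300a*, 1.23 to 1.53 for *Cd300ld*, 0.81 to 1.12 for *Pirb*, 1.32 to 2.13 for *Siglece*, 0.86 to 1.63 for *Siglecg* and 0.37 to 0.63 for *Cd33*. The exception is the study's threshold, where *Cd33* missed the fold of 2. *Cd300lb* turned to -0.032 with median-of-ratios and -0.018 with upper-quartile scaling. With each library left out in turn *Siglec1* ranged from -0.52 to 0.19 and *Siglecf* from -0.22 to 0.022, neither passing. Without replicate 3 of both groups, added after the values were seen, *Siglec1* (-0.295) and *Cd300lb* (0.151) passed, 2 receptors were lower, and *Siglecf* was 0.017.

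Over all tested genes, 5027 passed (3619 higher, 1408 lower). Median-of-ratios scaling gave 2057 higher and 2259 lower, upper-quartile scaling 2122 and 2152, and the study's threshold 1485 in all (893 and 592). The share of calls that were higher was 71.99% as deposited and 47.7%, 49.6% and 55.7% with median-of-ratios, upper-quartile and quantile scaling. Leaving out 1 library gave between 3489 and 5945 calls. The causes were not tested. Same-numbered libraries of the 2 groups correlated in their deviations with r = 0.116, 0.036 and 0.264, so the numbers were not taken to pair the samples, and 4 of the 6 libraries correlated better with another number. The fit with the replicate block made 5934 calls and changed no receptor's call. Combined with median-of-ratios scaling, an added alternative, the block gave 2775 lower genes and -0.032 for *Cd300lb*. Depth limits *Siglece*, *Siglecf* and *Siglecg*, each at 14 to 197 implied fragments per library.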

Other observations

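Among 22 other paired or inhibitory receptors of myeloid cells, all tested, 12 were higher and 5 lower in KO. The median change was 0.51 on the log2 scale, and median-of-ratios scaling gave 9 higher and 5 lower. Over all 13367 tested genes 27.1% were higher and 10.5% lower, with a median of 0.19 (2057 and 2259 genes with median-of-ratios scaling). The genes that rose furthest were *Pilra*, an inhibitory receptor (2.29 to 6.29 FPKM on average, log2 fold change 1.29, limma adjusted p = 0.00145), *Clec4a2*, the inhibitory lectin DCIR (13.0 to 32.3 FPKM, log2 fold change 1.29, limma adjusted p = 0.000524), and *Pilrb2*, an activating relative of *Pilra* (1.27 to 3.53 FPKM, log2 fold change 1.21, limma adjusted p = 0.00213). The falls named here are the furthest among called genes whose mean reached 1 FPKM, a limit that leaves out *Treml2* (0.922 to 0.290 FPKM, log2 fold change -0.85, limma adjusted p = 0.00418). *Trem1*, an amplifier of inflammatory signalling, had 3.51, 2.61 and 3.38 FPKM in WT and 0.236, 0.367 and 0.3402 FPKM in KO, without overlap (log2 fold change -2.17, limma adjusted p = 8.97e-05). *Treml4* fell from 3.93 to 0.788 FPKM (log2 fold change -1.79, limma adjusted p = 0.000296) and *Clec5a* from 6.67 to 4.24 FPKM (log2 fold change -0.60, limma adjusted p = 0.00608).

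The genes whose profiles over the 6 libraries were most like that of *Cd300lf* were *Slc6a12* (distance 0.180 on the log2 scale), *Zbp1* (0.272) and *Iigp1* (0.290), with log2 fold changes of -4.20, -4.22 and -3.91. Those most like *Siglec1* were *Brpf3*, *Mrtfb* and *Ubr4* (0.114 to 0.168). Those most like *Cd33* were *Lcp2*, *Slc39a11* and *Tmpo* (0.0570 to 0.0742), and those most like *Siglecg* were *Sdr42e1*, *Ggt5* and *Slc17a5* (0.130 to 0.198). *Cd300a* was closest to *Txndc16*, *Cdc42ep3* and *Pink1*, and *Cd300ld* to *Nacc2*, *Man1c1* and *Frmd4b*. *Pirb* was closest to *Dennd2c*, *Shisa4* and *Dglucy*, and *Cd300lb* to *Vps35l*, *Nmt1* and *C3ar1*. This distance mainly picks genes with a like difference between WT and KO, so like fold changes follow from the choice. Shared regulation was not tested.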
